A study of Mus musculus with 4 samples.

Results

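Genes of cholesterol, fatty acid and myelin lipid synthesis were followed across 4 RNA libraries of cultured mouse dorsal root ganglia, the sensory ganglia beside the spinal cord. They were a list of 40 genes chosen for their place in these pathways and found by symbol among the 23282 gene rows of the count tables. They fell into a sterol branch of 20 genes, a fatty acid branch of 14 and a sphingolipid branch of 6. Each symbol stood on 1 row, and all 40 had a mean of at least 10 reads (35.25 to 7424 reads, median 555).

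The ganglia came from C57BL/6 embryos at embryonic day 13 and grew as whole explants on Matrigel, first in growth medium and, from day in vitro (DIV) 8, in myelination medium. The libraries were ES at 19 DIV, control at 19 DIV, ES at 11 DIV and control at 11 DIV. ES cultures were stimulated electrically at 10 DIV (20 Hz, 50 mV/mm, 1 h) and control cultures were not. Each library held the RNA of 3 pooled explants and was the only one of its group, so the differences below have no replicates behind them. Explants hold neurons, Schwann cells and connective tissue together, so more cells of a type and more RNA per cell cannot be told apart here.

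Libraries held 5782834 to 7830950 reads from the 3' ends of transcripts, given as CPM, read counts brought to a common depth by TMM scaling, which corrects for library composition. Markers of the tissue were present. Summed neuron markers (6 genes) stood at 1145 and 2886 CPM in ES and control at 19 DIV, and at 3273 and 2280 CPM in ES and control at 11 DIV. The 6 markers of myelinating Schwann cells summed to 7077 and 7690 CPM in ES and control at 19 DIV, and to 4604 and 2165 CPM at 11 DIV, and the 6 fibroblast markers to 12429 and 9045 CPM, and to 6444 and 4746 CPM. The Schwann cell marker Erbb3 was at 0 in all libraries but ES at 19 DIV, where it had 2 reads. Of 5 adipocyte markers, Adipoq, Plin1, Fabp4 and Cidec were at 0 throughout and Pparg had 24 reads in control at 11 DIV only.

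Cholesterol is built from acetyl-CoA by way of mevalonate, squalene and lanosterol. Fatty acids are built from the same acetyl-CoA, then lengthened by elongases and given double bonds by desaturases, and ceramide is made from a fatty acid and serine. Myelin is rich in cholesterol, in very long fatty acids and in the galactolipids made from ceramide, and Schwann cells make much of this lipid themselves. Sterol and fatty acid enzymes are switched on by the SREBP transcription factors, which Srebf1 and Srebf2 encode. SCAP carries SREBP out of the endoplasmic reticulum when sterols are low, and INSIG holds both back when sterols are plentiful.

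SREBP binds sterol regulatory elements, usually beside sites for NF-Y and Sp1. Promoter sequences in RefSeq (GRCm38.p6) were found for 33 of the 40 genes, and the 250 bases before each annotated start were searched on both strands for TCACNCCAC (a sterol regulatory element), CCAAT (the NF-Y box) and GGGCGG (an Sp1 box), 3 motifs of which none contains another. The promoters shown are those of Hmgcs1, the most abundant sterol gene, of Insig1, a regulator whose level in 1 library was close to 0, and of Elovl5, with the sterol regulatory element and the CCAAT box in capitals (the CCAAT boxes lie on the other strand and read ATTGG). The stretches are chr13:119690101-119690330 for Hmgcs1, chr5:28071176-28071220 for Insig1 and chr9:77917274-77917364 for Elovl5, all on the plus strand.

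Hmgcs1: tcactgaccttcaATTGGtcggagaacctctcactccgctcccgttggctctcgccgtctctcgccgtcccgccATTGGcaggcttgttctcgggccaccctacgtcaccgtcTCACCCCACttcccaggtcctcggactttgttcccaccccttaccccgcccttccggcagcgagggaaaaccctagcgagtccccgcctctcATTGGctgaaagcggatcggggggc
Insig1: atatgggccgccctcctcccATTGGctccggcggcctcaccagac
Elovl5: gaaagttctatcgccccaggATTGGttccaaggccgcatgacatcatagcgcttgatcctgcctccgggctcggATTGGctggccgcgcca

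The element of Hmgcs1 began 137 bases before the start, between CCAAT boxes that began 176 and 45 bases before it. Hmgcs1 was the 1 gene of the 33 with these letters, against 1.22% of all 27025 genes in the promoter table. CCAAT boxes were in 15 of 17 sterol promoters, 5 of 11 fatty acid promoters and 4 of 5 sphingolipid promoters, against 37.5% of all genes. The Sp1 box was in 16 of 17, 7 of 11 and 4 of 5, against 35.4% of all genes. The promoter table covers genes that are silent here as well as active ones, and these shares describe letters only.

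Summed over its 20 genes, the sterol branch stood at 2699 and 2351 CPM in ES and control at 19 DIV, and at 2351 and 1835 CPM in ES and control at 11 DIV. The fatty acid branch summed to 3099 and 4164 CPM in ES and control at 19 DIV, and to 3943 and 2640 CPM at 11 DIV. Sphingolipid genes summed to 636 and 460 CPM in ES and control at 19 DIV, and to 387 and 396 CPM at 11 DIV. The control library at 11 DIV was therefore the lowest of the 4 for the sterol and fatty acid sums, and ES at 19 DIV the highest for the sterol and sphingolipid sums. The sphingolipid ranking rested on Cers2: the other 5 genes summed to 175 and 280 CPM in ES and control at 19 DIV, and to 137 and 30.6 CPM at 11 DIV, with control at 19 DIV highest.

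**Figure D1:**
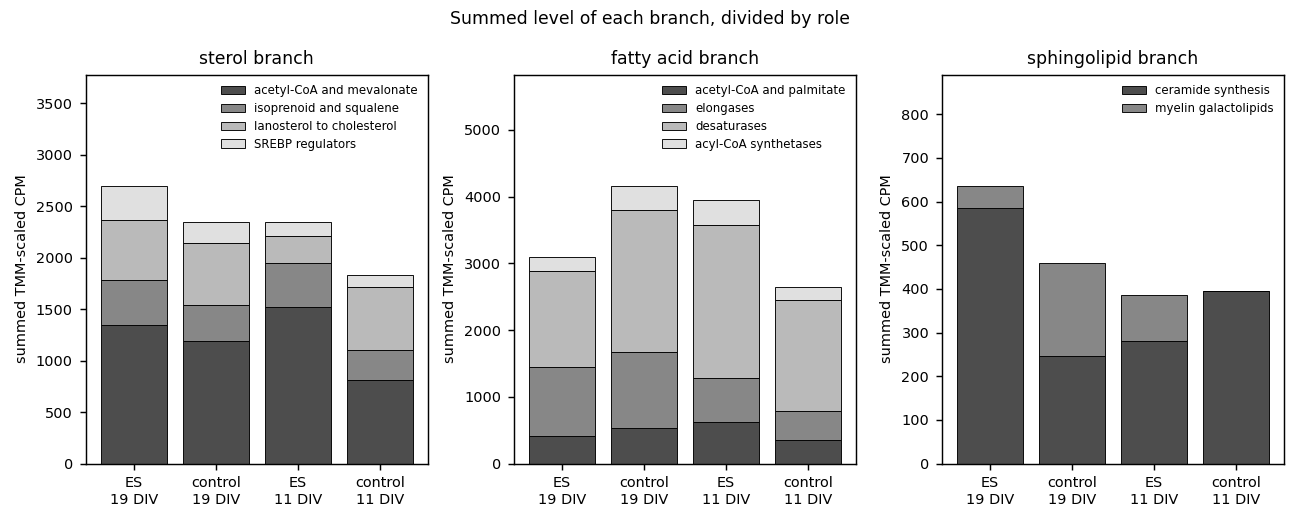
Summed TMM-scaled CPM of each branch in the 4 libraries, 1 library per bar, divided by the role of the genes. The fatty acid bar is shorter in ES than in control at 19 DIV (3099 and 4164 CPM) and taller in ES than in control at 11 DIV (3943 and 2640 CPM), and the myelin galactolipid genes have no bar in control at 11 DIV, where all 3 had 0 reads.

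The same library was the lowest for 17 of the 40 genes (42.5%), against 19.5% of the 10377 genes with a mean at least as high as that of the lowest member. It was the highest for 3 of 40 (7.5%), against 24.8%. These counts were not among the planned results. The 17 were Acat2, Hmgcs1, Idi1, Fdft1, Srebf1, Srebf2 and Insig1 of the sterol branch, Acly, Acaca, Elovl5, Elovl6, Acsl3 and Acsl4 of the fatty acid branch, and Sptlc1, Fa2h, Ugt8a and Gal3st1 of the sphingolipid branch. Summed myelinating Schwann cell markers and fibroblast markers were also lowest in that library, and neuron markers were not. The part of these cell types in the result was not tested. That library also held the largest share of reads on the ribosomal RNA row Rn45s, at 5.18% against 2.65% to 3.08% in the others. The part of this difference between libraries was not tested either.

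**Figure D2:**
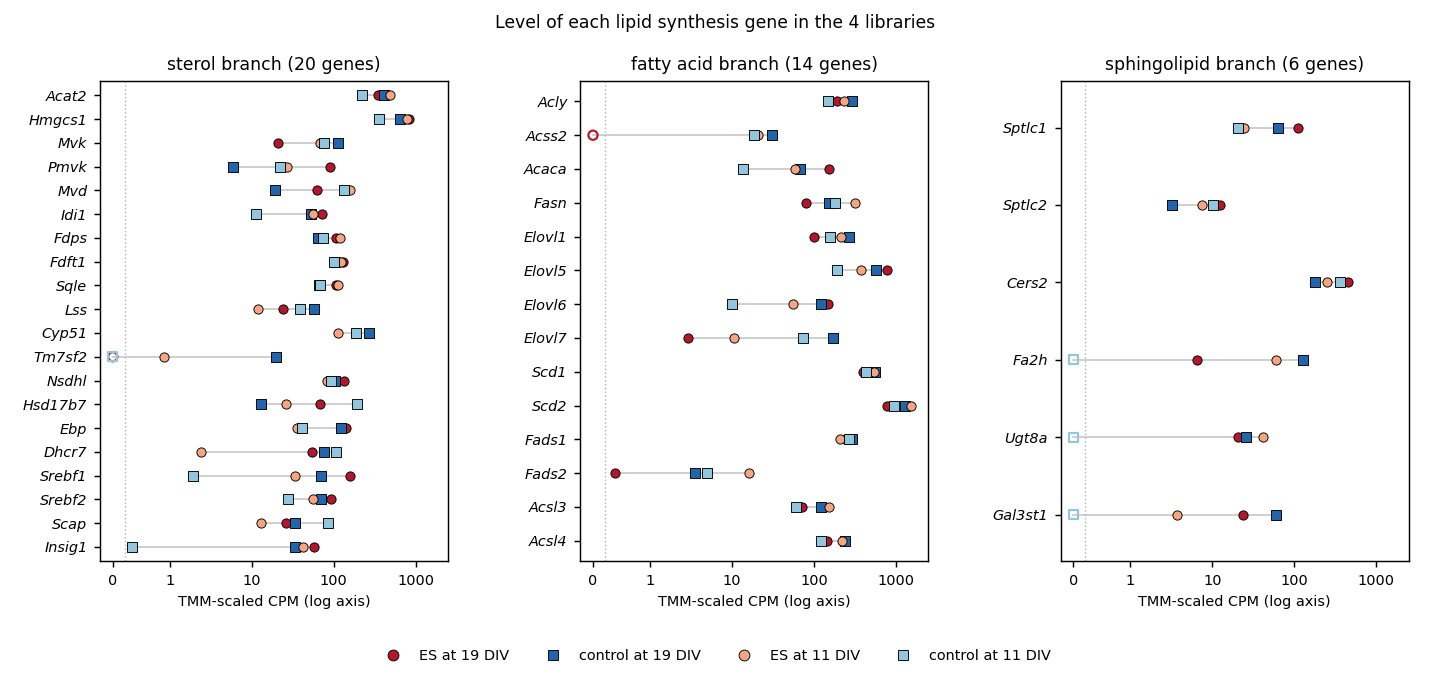
TMM-scaled CPM of each of the 40 genes (log axis) in the 4 libraries, with 0 reads drawn as open symbols left of the dotted line (for Tm7sf2, those of ES at 19 DIV and control at 11 DIV coincide). Abundant genes such as Scd2 and Hmgcs1 span a narrow range, while Insig1, Srebf1, Elovl7 and the 3 myelin galactolipid genes spread over more than 10-fold.

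Differences between 2 libraries are given as ratios of CPM. A gene was called higher or lower by the size rule if the ratio was at least 2-fold, the exact 95% counting interval excluded equality and the higher library had at least 50 reads. The libraries differed from one another far beyond counting error: in the mean range of 500 to 3000 reads, the typical squared difference of a gene between 2 libraries was 209 to 260 times what counting gives. Spread-adjusted intervals divide the counts by this factor, and a spread-adjusted call asks for a 99% interval of this kind that excludes equality. Intervals printed below are spread-adjusted 95% intervals. None of the 40 genes was called by the spread-adjusted rule in any of the 4 comparisons, in which it called 0.259% to 0.608% of all genes. Genes with few reads could not pass this rule whatever their ratio. Fa2h, with 880 reads in control at 19 DIV and 0 in control at 11 DIV, had a lower 95% end of 0.510. For such genes a missing call reflects depth and does not show that the libraries were alike. All differences below are therefore between single libraries, and genes averaging under 500 reads, whose ratios can be very large, are given by their reads.

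Setting ES against control addresses what stimulation did, at 19 DIV 9 days later and at 11 DIV 1 day later. At 19 DIV the size rule called 7 of the 39 genes that had at least 50 reads in the higher library higher in ES, with 29.4% of all 10027 genes tested called higher, and 8 lower, with 31.3% called lower. The spread-adjusted rule called 0.259% in either direction and none of the 40. At 11 DIV the size rule called 13 of 38 higher in ES, with 28.9% of all 9834 genes called higher, and 5 lower, with 29.6% called lower, and 0.315% passed the spread-adjusted rule. So at 19 DIV fewer of the 40 genes were called in either direction than among all genes, and at 11 DIV the share called higher was near that of all genes and the share called lower was below it. Genes called higher on both days were Acaca and Srebf1, 2 of 37 tested on both, against 8.09% of all genes, and genes called lower on both were Elovl7 and Lss, against 8.65%.

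The fatty acid branch stood apart in sign at 19 DIV, and at 11 DIV all 3 branch medians were above 0. Median log2 differences of ES minus control were 0.35 at 19 DIV and 0.30 at 11 DIV for the 20 sterol genes, and -0.72 at 19 DIV and 0.74 at 11 DIV for the 14 fatty acid genes, against 0.00 for all genes on both days. The 6 sphingolipid genes had medians of 0.24 at 19 DIV and 1.91 at 11 DIV (1.54 with members at 0 put at the 3 reads that a count of 0 allows). Of the fatty acid genes, 11 of 14 were below control at 19 DIV and 12 of 14 above it at 11 DIV. Of these 14, 9 did both (64.3%), against 23.4% of all genes, and 2 of 20 sterol genes did. Of the 20 sterol genes, 10 (50.0%) were above control on both days, against 21.3% of all genes. Neither pattern was among the planned results, and the genes share the same 4 libraries, so they are not independent. The summed fatty acid level was at 0.744 times control at 19 DIV (0.568 to 0.974) and at 1.49 times control at 11 DIV (1.10 to 2.03). The summed sterol level was at 1.15 (0.831 to 1.59) and 1.28 (0.876 to 1.88). Intervals of sums, here and below, take the scatter of the genes as independent. They are too narrow where genes of a list vary together, so a sum whose interval excludes equality is not shown to differ. Neuron markers moved with the fatty acid sum, at 0.397 times control at 19 DIV (0.264 to 0.587) and 1.44 times at 11 DIV (1.03 to 2.01), while myelinating Schwann cell markers were at 0.920 (0.764 to 1.11) and 2.13 (1.56 to 2.94). Fibroblast markers, like the sterol sum, were above control on both days, at 1.37 (1.18 to 1.61) and 1.36 (1.08 to 1.71). The part of these cell types in the results was not tested.

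**Figure D3:**
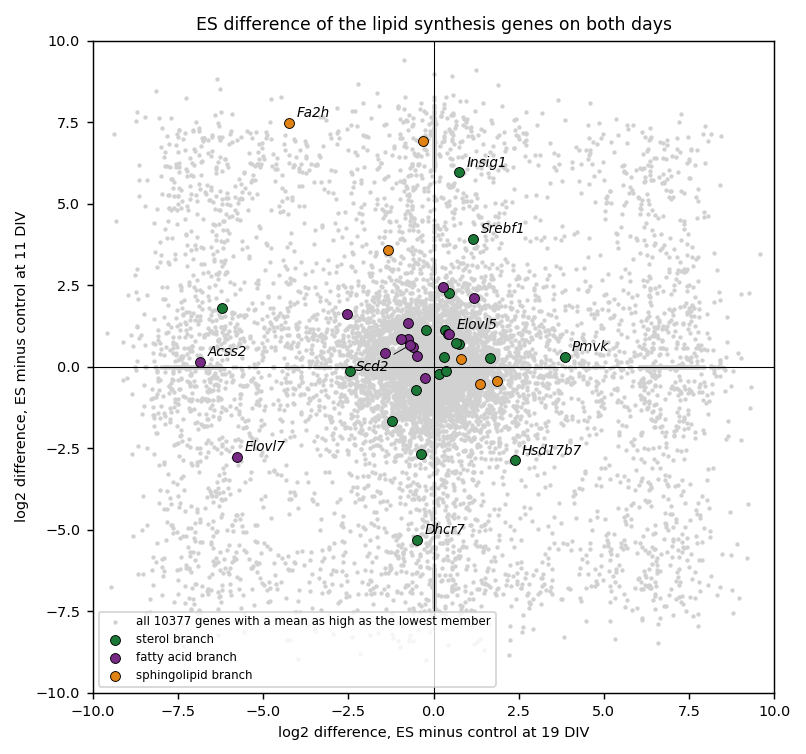
Log2 difference of ES minus control (prior count 2) at 19 DIV on the horizontal axis and at 11 DIV on the vertical axis, 1 library per group, for the 40 genes by branch and, in grey, all 10377 genes with a mean at least as high as that of the lowest member. Fatty acid genes lie mostly at upper left (9 of 14) and sterol genes more often at upper right (10 of 20), in a cloud of all genes that spreads widely on both axes.

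The first steps of sterol synthesis make HMG-CoA and turn it into isoprenoid units. Hmgcs1, HMG-CoA synthase (protein-coding, chromosome 13, positions 119690379 to 119708260 in GRCm38), had 823 and 649 CPM in ES and control at 19 DIV, and 785 and 362 CPM in ES and control at 11 DIV. It was the gene with the narrowest intervals in this branch. Control at 11 DIV was low and the other libraries lay closer together. The ratio of ES to control was 1.27 at 19 DIV (0.683 to 2.40) and 2.17 at 11 DIV (0.989 to 5.12).

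Acat2, the cytosolic thiolase that makes acetoacetyl-CoA, had 349 and 407 CPM in ES and control at 19 DIV, and 483 and 222 CPM in ES and control at 11 DIV. Here too control at 11 DIV was lowest, and ES was at 0.857 times control at 19 DIV (0.350 to 2.10) and 2.18 times at 11 DIV (0.788 to 6.83). Mvd, mevalonate diphosphate decarboxylase, had 61.7 and 19.3 CPM at 19 DIV, and 160 and 132 CPM at 11 DIV. Both libraries at 11 DIV stood above both at 19 DIV. The mevalonate kinases had fewer reads. Mvk had 165 and 782 reads in ES and control at 19 DIV and 408 and 440 at 11 DIV, and Pmvk had 715 and 41, and 161 and 127.

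Fdps, Fdft1 and Sqle, which make farnesyl diphosphate, squalene and its epoxide, shared a pattern. Fdps had 107 and 64.1 CPM in ES and control at 19 DIV, and 119 and 73.5 CPM at 11 DIV. Fdft1 had 129 and 105 CPM at 19 DIV, and 123 and 99.95 CPM at 11 DIV. Sqle had 106 and 66.6 CPM at 19 DIV, and 113 and 67.8 CPM at 11 DIV. In all 3 both ES libraries stood above both control libraries, with ratios of 1.67 (0.217 to 20.8) and 1.62 (0.208 to 18.2) for Fdps, 1.24 (0.224 to 8.07) and 1.23 (0.182 to 9.43) for Fdft1, and 1.59 (0.208 to 18.7) and 1.67 (0.197 to 21.4) for Sqle, at 19 and 11 DIV in turn. Every interval included equality, and at these read numbers the intervals were too wide to exclude differences of this size. Exons of Fdft1 overlap those of Ctsb on the opposite strand, whose row had a mean of 3876 reads. Whether counting used strand is not given in the sources at hand, and without it reads of such pairs cannot be told apart. Idi1, the isomerase of isoprenoid units, had 577 and 360 reads at 19 DIV and 327 and 65 at 11 DIV, and Lss, lanosterol synthase, 193 and 391, and 70 and 224.

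The 6 genes of the late steps from lanosterol to cholesterol summed to 583 and 604 CPM in ES and control at 19 DIV, and to 261 and 616 CPM at 11 DIV, so ES at 11 DIV stood below the other 3 libraries. Their sum was at 0.966 (0.483 to 1.95) times control at 19 DIV and 0.423 (0.153 to 1.06) at 11 DIV, beside 1.27 (0.535 to 3.17) and 1.45 (0.546 to 4.07) for the isoprenoid and squalene genes, and the difference between these groups was not tested. Cyp51, lanosterol demethylase, had 188 and 268 CPM at 19 DIV and 113 and 185 CPM at 11 DIV, at 0.703 (0.207 to 2.29) and 0.611 (0.102 to 3.02) times control. It was below control on both days, and its exons overlap those of Akap9 on the opposite strand (mean of 944 reads). Nsdhl, a sterol dehydrogenase, had 133 and 103 CPM at 19 DIV and 83.1 and 91.7 CPM at 11 DIV. Ebp, a sterol isomerase, had 140 and 125 CPM at 19 DIV and 35.4 and 41.1 CPM at 11 DIV. These 2 genes are both on chromosome X, and all 4 of their ratios of ES to control lay between 0.863 and 1.29. The intervals of Nsdhl were 0.238 to 8.44 at 19 DIV and 0.0889 to 8.71 at 11 DIV. Those of Ebp were 0.228 to 6.16 and 0.0119 to 47.1. Intervals this wide cannot show that ES and control were alike.

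Hsd17b7, a ketoreductase of the late pathway, and Dhcr7, the reductase of its last step, varied widely. Hsd17b7 had 540 and 88 reads in ES and control at 19 DIV, and 153 and 1107 in ES and control at 11 DIV. Dhcr7 had 430 and 521 reads at 19 DIV, and 14 and 618 at 11 DIV. Tm7sf2, a sterol reductase, had 0 and 136 reads at 19 DIV and 5 and 0 at 11 DIV. ES and control changed places between the days in Hsd17b7, and Dhcr7 was low in 1 library of the 4. By the size rule Hsd17b7 was called higher at 19 DIV and lower at 11 DIV, and Dhcr7 lower at 11 DIV.

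The regulators of the branch were highest in ES at 19 DIV as a sum, at 334 CPM against 208 CPM in control, with 144 and 115 CPM in ES and control at 11 DIV. Srebf1 (chromosome 11, positions 60199089 to 60222581) had 1255 and 482 reads in ES and control at 19 DIV, and 199 and 11 in ES and control at 11 DIV. Srebf2 had 746 and 484 reads at 19 DIV, and 328 and 160 at 11 DIV. Both genes stood in the same order of libraries, as levels in CPM too. Insig1 had 458 and 233 reads at 19 DIV, and 252 and 2 at 11 DIV, and Scap had 207 and 233, and 77 and 491. Scap was thus highest in the library in which the other 3 were lowest. Exons of Srebf1 overlap those of Rai1 on the opposite strand (mean of 227 reads).

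That order, ES at 19 DIV over control at 19 DIV over ES at 11 DIV over control at 11 DIV, held for 6 of the 40 genes (15.0%), against 3.71% of all 10377 genes. It was looked for after the values had been seen. The 6 were Srebf1, Srebf2, Acaca, Elovl5, Elovl6 and Sptlc1.

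Synthesis of palmitate starts with Acly, which makes cytosolic acetyl-CoA, and goes on with Acaca and Fasn. Acly had 190 and 290 CPM in ES and control at 19 DIV, and 230 and 151 CPM in ES and control at 11 DIV. Fasn, fatty acid synthase (chromosome 11, positions 120805846 to 120824547), had 79.3 and 155 CPM at 19 DIV, and 321 and 179 CPM at 11 DIV. Both genes were below control at 19 DIV and above it at 11 DIV, Acly at 0.657 (0.198 to 2.07) and 1.53 (0.383 to 6.98) times control and Fasn at 0.512 (0.0694 to 2.91) and 1.79 (0.539 to 6.79). The counts of Acly lay within 5% of those of Cct2, a chaperonin gene, in all 4 libraries, and it was the 1 member with such a partner row.

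Acaca, acetyl-CoA carboxylase, went the other way at 19 DIV. It had 152 and 66.9 CPM in ES and control at 19 DIV, and 58.9 and 13.5 CPM in ES and control at 11 DIV. Its ratio was 2.28 at 19 DIV (0.375 to 24.5) and 4.38 at 11 DIV (0.0917 to 61395), from 349 and 78 reads. Acss2, which makes acetyl-CoA from acetate, had 0 and 211 reads at 19 DIV and 123 and 108 at 11 DIV. With 0 put at 3 reads and the 211 reads taken as exact, its level in ES at 19 DIV was 81.5-fold lower. That figure leaves out the scatter between libraries, and the spread-adjusted interval of the ratio (0 to 52.0) included equality.

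Of the desaturases, Scd2 had the most reads of all 40 genes. Scd2 (chromosome 19, positions 44293674 to 44306864) makes monounsaturated fatty acids and had 788 and 1282 CPM in ES and control at 19 DIV, and 1517 and 964 CPM in ES and control at 11 DIV. ES at 19 DIV was the lowest library and ES at 11 DIV the highest. Ratios to control were 0.614 (0.360 to 1.04) and 1.57 (0.949 to 2.65). Scd1, its neighbour with the same reaction, had 399 and 554 CPM at 19 DIV, and 538 and 429 CPM at 11 DIV, with the same signs and ratios of 0.719 (0.323 to 1.58) and 1.25 (0.549 to 2.93). The summed branch kept its signs without Scd2, at 0.802 times control at 19 DIV (0.582 to 1.10) and 1.45 times at 11 DIV (0.984 to 2.15), although both intervals then included equality.

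Fads1, a desaturase of polyunsaturated fatty acids, had 246 and 296 CPM at 19 DIV, and 211 and 267 CPM at 11 DIV. It was below control on both days, at 0.832 (0.282 to 2.44) and 0.787 (0.221 to 2.67). Fads2, of the same pathway and chromosome, had 3 to 96 reads in the 4 libraries.

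The elongases divided. Elovl5, which lengthens polyunsaturated fatty acids (chromosome 9, positions 77917364 to 77984519), had 778 and 567 CPM in ES and control at 19 DIV, and 380 and 190 CPM in ES and control at 11 DIV. ES was above control on both days, at 1.37 (0.716 to 2.71) and 2.001 (0.648 to 7.13) times control, the last just inside the size rule. Elovl6, which lengthens palmitate, had 148 and 121 CPM at 19 DIV, and 56.0 and 10.0 CPM at 11 DIV. It had the same order of libraries, with ratios of 1.22 (0.254 to 6.75) at 19 DIV and 5.60 at 11 DIV (0.0859 to 1853780), from 332 and 58 reads.

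Elovl1, an elongase of very long saturated fatty acids, had 99.1 and 265 CPM in ES and control at 19 DIV, and 214 and 159 CPM in ES and control at 11 DIV. ES at 19 DIV was the lowest, at 0.374 times control (0.0708 to 1.503), and the ratio at 11 DIV was 1.35 (0.332 to 6.03). Elovl7, another elongase of long saturated fatty acids, had 23 and 1177 reads at 19 DIV and 62 and 423 at 11 DIV, so both ES libraries stood below both control libraries. Its ratios were 0.0169 (0 to 1.003) and 0.143 (0 to 6.28), and both intervals included equality. Exons of Elovl1 overlap those of Cdc20 on the opposite strand (mean of 572 reads).

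Acsl3 and Acsl4 join fatty acids to coenzyme A, and both changed sign between the days. Acsl3 had 72.0 and 122 CPM at 19 DIV, and 153 and 59.9 CPM at 11 DIV. Acsl4 had 144 and 241 CPM at 19 DIV, and 218 and 120 CPM at 11 DIV. Ratios to control were 0.589 (0.0673 to 4.09) and 2.55 (0.352 to 37.2) for Acsl3, and 0.598 (0.148 to 2.20) and 1.81 (0.409 to 10.0) for Acsl4.

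**Figure D4:**
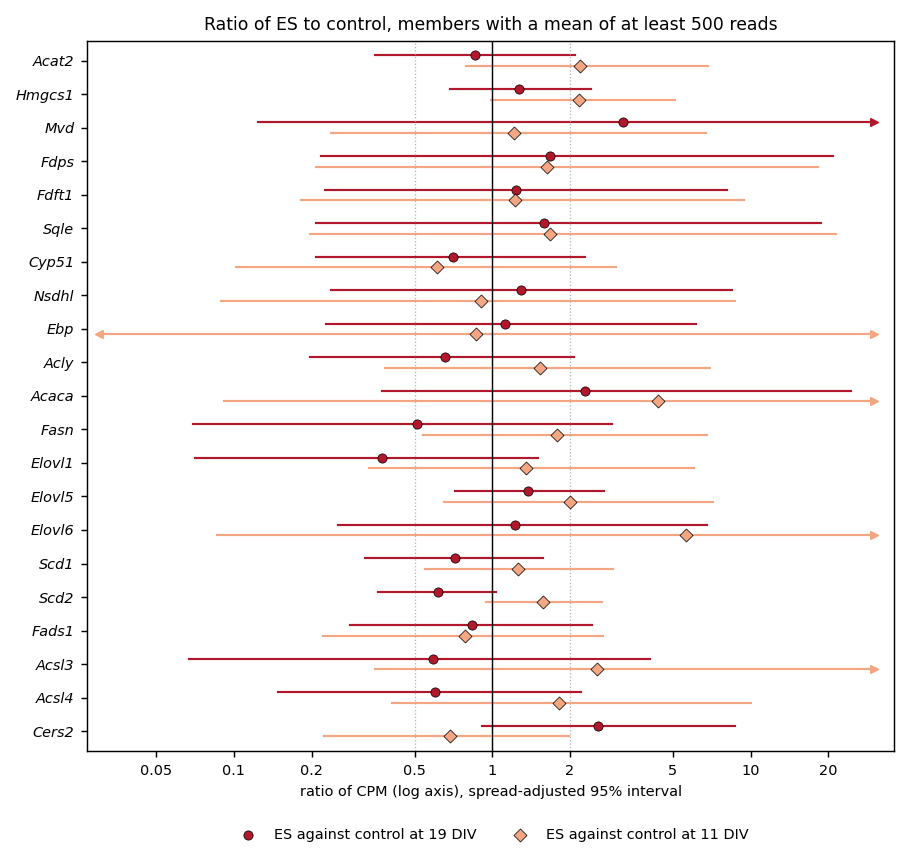
Ratio of CPM in ES to control (log axis) at 19 DIV and at 11 DIV for the 21 genes averaging 500 reads or more, 1 library per group, with spread-adjusted 95% intervals (arrowheads mark ends beyond the axis) and dotted lines at 2-fold. All 42 intervals include equality, among them those of Scd2 at 19 DIV (0.360 to 1.04) and of Hmgcs1 at 11 DIV (0.989 to 5.12).

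In the sphingolipid branch, Cers2, the ceramide synthase for very long fatty acids (chromosome 3, positions 95314791 to 95323599), set the sum. It had 461 and 180 CPM in ES and control at 19 DIV, and 250.001 and 366 CPM in ES and control at 11 DIV. ES at 19 DIV was the highest library and control at 19 DIV the lowest, and the ratios of ES to control were 2.57 (0.910 to 8.69) and 0.684 (0.223 to 1.97). Exons of Cers2 overlap those of Setdb1 on the opposite strand (mean of 1386 reads). The subunits of serine palmitoyltransferase, which starts the pathway, were Sptlc1, with 898 and 443 reads at 19 DIV and 143 and 118 at 11 DIV, and Sptlc2, with 98 and 22, and 44 and 59.

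The genes of the myelin galactolipids had 0 reads in control at 11 DIV, all 3 of them. Fa2h, which hydroxylates the fatty acid (chromosome 8, positions 111345135 to 111393824), had 52 and 880 reads in ES and control at 19 DIV, and 360 and 0 in ES and control at 11 DIV. Ugt8a, which adds the galactose, had 163 and 176 reads at 19 DIV, and 244 and 0 at 11 DIV. Gal3st1, which adds the sulfate of sulfatide, had 188 and 410 reads at 19 DIV, and 22 and 0 at 11 DIV. In all 3, ES had fewer reads than control at 19 DIV and more than control at 11 DIV. A count of 0 allowed up to 0.518 CPM in control at 11 DIV for counting error only. Summed, the 3 genes stood at 50.5 and 213 CPM in ES and control at 19 DIV, and at 106 and 0 CPM at 11 DIV. The markers of myelinating Schwann cells were lowest in control at 11 DIV as well, with Egr2, a transcription factor of myelination, at 1935 and 393 reads at 19 DIV and 585 and 3 at 11 DIV. The part of these cells in the result was not tested.

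The comparison of 19 with 11 DIV addresses what changed between these days, in ES and in control cultures apart. All cultures were in myelination medium on both days, so time in this medium and age in culture cannot be told apart. In ES cultures the time since stimulation differs as well. This comparison uses the same 4 libraries as above, so its ratios are not independent of those of stimulation. Between ES libraries the size rule called 11 of 39 genes higher at 19 DIV, with 30.9% of all 9884 genes called higher, and 10 lower, with 30.5% called lower and 0.415% past the spread-adjusted rule. Between control libraries it called 15 of 39 higher, with 30.9% of all 10025 genes called higher, and 6 lower, with 29.8% called lower and 0.608% past the spread-adjusted rule. Median log2 differences of 19 minus 11 DIV were 0.56 in ES and 0.54 in control for the sterol branch, -0.77 and 0.84 for the fatty acid branch, and 0.79 and 3.9999 for the sphingolipid branch (0.80 and 3.64 with members at 0 put at 3 reads), against 0.00 for all genes.

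The summed fatty acid level at 19 DIV was at 0.786 times that at 11 DIV in ES (0.583 to 1.06) and 1.58 times in control (1.16 to 2.16), and the summed sterol level at 1.15 (0.805 to 1.65) and 1.28 (0.870 to 1.90). Of the 14 fatty acid genes, 10 were lower at 19 DIV in ES and 12 higher in control. Scd2 was at 0.519 times its 11 DIV level in ES (0.296 to 0.899) and 1.33 times in control (0.777 to 2.32). Its interval in ES excluded equality at 95%, and the ratio fell short of 2-fold. Fasn was at 0.247 (0.0330 to 1.16) in ES and 0.863 (0.183 to 4.12) in control. Neuron markers were at 0.350 (0.228 to 0.529) in ES and 1.27 (0.895 to 1.80) in control. Fibroblast markers were higher at 19 DIV in both, at 1.93 (1.59 to 2.35) and 1.91 (1.53 to 2.39), and so were myelinating Schwann cell markers, at 1.54 (1.21 to 1.96) and 3.55 (2.63 to 4.87). The part of these cell types in the results was not tested.

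Elovl5 was higher at 19 DIV in both pairs, at 2.05 times its 11 DIV level in ES (0.910 to 5.10) and 2.99 times in control (1.04 to 10.8). It was 1 of 7 genes called higher in both pairs by the size rule, of 38 tested in both, against 9.84% of all genes. The others were Srebf1, Ebp, Acaca, Elovl6, Gal3st1 and Sptlc1. Ebp stood at 3.95 and 3.03 times, Acaca at 2.58 and 4.97 times and Elovl6 at 2.65 and 12.1 times, in ES and control in turn, all with intervals that included equality. Mvd was the 1 gene called lower in both, against 9.14% of all genes, at 0.387 (0.0316 to 2.96) and 0.146 (0.00027 to 2.45) times. Hmgcs1 was at 1.05 (0.550 to 2.04) and 1.79 (0.776 to 4.49), and Cers2 at 1.84 (0.657 to 6.02) and 0.491 (0.135 to 1.59).

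**Figure D5:**
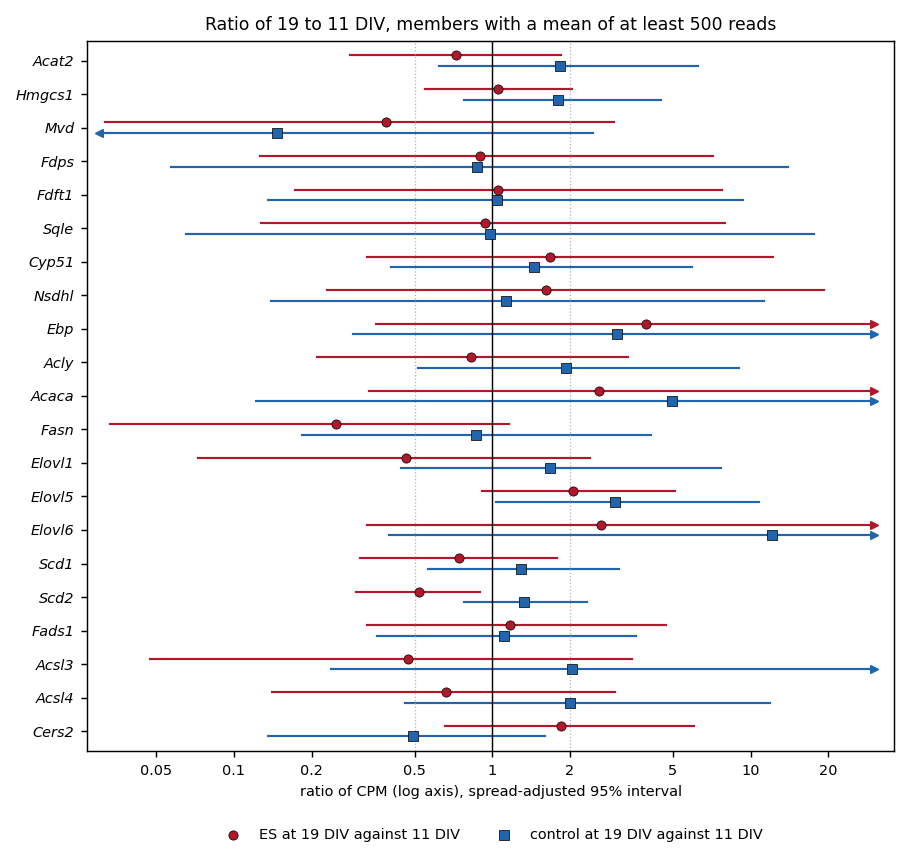
Ratio of CPM at 19 DIV to 11 DIV (log axis) in ES and in control cultures for the 21 genes averaging 500 reads or more, 1 library per group, with spread-adjusted 95% intervals (arrowheads mark ends beyond the axis) and dotted lines at 2-fold. The interval of Scd2 in ES lies below equality (0.296 to 0.899) and that of Elovl5 in control above it (1.04 to 10.8), and the other 40 include it.

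A model over all 4 libraries with ES and day as additive factors leaves 1 residual degree of freedom and takes the effect of ES to be the same on both days. For ES, edgeR's quasi-likelihood test called 0 of 10050 genes (0%) at a Benjamini-Hochberg adjusted p of 0.05, with 109 genes at an unadjusted p under 0.05, and for day 0 genes (0%), with 202. Of the 39 members tested, 1 for ES (Elovl7) and 2 for day (Elovl5 and Srebf1) had an unadjusted p under 0.05, and the adjusted p of each member was 1. limma with voom called 0 genes for either factor, with 566 and 701 at an unadjusted p under 0.05. DESeq2 called 503 genes for ES (5%) and 832 for day (8.28%). Its calls held 1 member for ES, Elovl7, with a log2 difference of -4.31 and an adjusted p of 0.00147. For day they held 5 members, Elovl5 (1.31, adjusted p of 0.00151), Srebf1 (3.66, 0.00503), Ebp (1.80, 0.0208), Elovl6 (2.50, 0.0228) and Mvd (-2.06, 0.0213), of which all but Mvd were higher at 19 DIV.

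Other genes of these pathways, 49 in all, were counted in the same way. In ES against control at 19 DIV the size rule called 11 higher and 7 lower of 33 tested, with 29.4% and 31.3% of all genes. At 11 DIV it called 12 higher and 6 lower of 34, with 28.9% and 29.6% of all genes. Between 19 and 11 DIV it called 10 higher and 8 lower of 34 in ES, with 30.9% and 30.5% of all genes. In control it called 11 higher and 10 lower of 34, with 30.9% and 29.8% of all genes. Their median log2 differences lay between -0.10 and 0.00 in these 4 comparisons. By branch, the medians of ES minus control at 19 and 11 DIV were -0.04 and 0.18 for the other sterol genes, 0.00 and -0.13 for the other fatty acid genes, and 0.21 and 0.56 for the other sphingolipid genes. The signs of the 14 fatty acid genes above, negative at 19 DIV and positive at 11 DIV, were thus not seen in the medians of the other fatty acid genes. Genes at 0 in both libraries, such as Acsl6 at 19 DIV, entered these medians as a difference of 0. As a sum, the other fatty acid genes stood at 1.01 (0.64 to 1.60) times control at 19 DIV and 1.47 (0.871 to 2.53) at 11 DIV.

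Among the abundant others, Msmo1, a sterol oxidase, had 320.1 and 331 CPM at 19 DIV, and 243 and 242 CPM at 11 DIV. Tecr, the reductase that closes each round of elongation, had 444 and 475 CPM at 19 DIV, and 570.2 and 196 CPM at 11 DIV. In Tecr, as in Hmgcs1 and Acat2, control at 11 DIV was lowest, and ES was at 2.91 (1.05 to 9.58) times control at 11 DIV. Hacd3, the dehydratase of the same cycle, had 249 and 233 CPM at 19 DIV, and 79.8 and 28.3 CPM at 11 DIV. Hsd17b12, its ketoreductase, had 131 and 152 CPM at 19 DIV, and 78.3 and 193 CPM at 11 DIV. Degs1, which makes ceramide from its precursor, had 109 and 325 CPM at 19 DIV, and 145 and 80.4 CPM at 11 DIV. Kdsr, of the step after serine palmitoyltransferase, had 122 and 40.04 CPM at 19 DIV, and 316 and 144 CPM at 11 DIV, and Sgms1, a sphingomyelin synthase, 179 and 33.4 CPM, and 77.8 and 124 CPM.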

How the data were processed

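Per the labels' protocols, each library was built with a Lexogen QuantSeq kit from 500 ng of RNA. The authors deposited raw counts of reads per gene symbol, 1 table per library. Bowtie2, bedtools and mm10 are named, without versions, in the submitters' processing notes. Use of strand and handling of duplicates: not given in the sources used here. Gene positions came from GENCODE M21 (GRCm38, the assembly of mm10), and promoters from RefSeq (GRCm38.p6).

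Counts were scaled with TMM over the 4 libraries (edgeR 4.0.16, R 4.3.3). Intervals on ratios are exact Clopper-Pearson intervals, and cover counting error only or, divided by the spread factor, the scatter between 2 libraries. Those of summed levels also assume that the genes of a list vary independently of one another. Log2 differences used a prior count of 2, and medians took genes averaging 10 reads or more. The additive fits used filterByExpr, all genes, and edgeR, DESeq2 1.42.0 or limma 3.58.1. With 1 library per group, their p-values set the ES or day effect against an error that is itself the departure of these 4 libraries from additivity. The rules were tested on simulated counts. Other steps used scipy 1.17.1, matplotlib 3.10.9, pandas 2.3.3, numpy 2.4.6 and Python 3.11.15.

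Levels in CPM are given in every library for members averaging 500 reads or more, reads for the rest, and of the other pathway genes for the 3 most abundant per branch and any past the spread-adjusted rule. Some genes that this rule names are not reported here. The members, lists and rules were chosen with earlier results of these data known. Other scalings, minimums, folds, prior counts and thinned reads were the alternatives.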

Additional observations from a re-analysis of the deposited data

Results flagged for a closer look

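Some genes were called in opposite directions by the size rule under the same contrast in 2 settings. With 1 library per group the difference between the settings was not tested, and none of these genes passed the spread-adjusted rule. The size rule called 28.9% to 31.3% of all genes in each direction in each comparison. How many of all genes had opposite calls was not counted, so these genes are not shown to stand out. For ES against control, the log2 differences of Hsd17b7 were 2.38 at 19 DIV and -2.87 at 11 DIV, and those of Fa2h -4.24 at 19 DIV and 7.48 at 11 DIV. For 19 against 11 DIV, Hsd17b7 had 1.38 in ES and -3.87 in control, Fa2h -3.17 and 8.66, Ugt8a -1.003 and 6.36, Elovl7 -1.76 and 1.22, Pmvk 1.71 and -1.83, and Acsl3 -1.08 and 1.02. The values of Fa2h and Ugt8a against control at 11 DIV rest on a count of 0 and depend on the prior count.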

How the results depend on the processing

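Scaling by DESeq2 size factors, by plain totals or without the Rn45s row, and thinning to 5782834 reads, changed no count over the 40 genes by more than 1.5 times and no median's sign. Plain totals moved every gene by 0.13 (log2) in ES against control at 11 DIV and in control at 19 against 11 DIV. Of 640 values of single genes under these settings, 633 kept their call, 5 gained one, 2 lost it and none changed direction. Other limits moved the counts. With at least 1.5-fold, 11 members were higher and 13 lower in ES at 19 DIV, and 17 higher at 19 DIV in ES cultures, of 39 tested, with 36.0%, 38.3% and 37.7% of all genes called so. With at least 3-fold, 4 were higher and 5 lower in ES at 19 DIV (22.8% and 25.3% of all genes), 8 of 38 higher in ES at 11 DIV (21.5%), and 6 higher and 6 lower at 19 DIV in ES cultures (24.3% and 24.2%). With at least 500 reads, 4 of 30 were lower in ES at 19 DIV (20.4% of all genes), 4 of 20 higher and 2 lower in ES at 11 DIV (19.9% and 20.8%), 6 of 23 higher and 3 lower at 19 DIV in control cultures (24.9% and 19.7%), and 4 of 27 lower in ES cultures (18.4%). A 95% spread-adjusted interval called 1 member, Elovl5, in control at 19 against 11 DIV. Over the members averaging 500 reads or more the median moved to 0.17 in ES against control at 19 DIV (-0.24 over all 40) and -0.10 at 19 against 11 DIV in ES (0.15 over all 40). Sphingolipid medians depended on the prior count, at 2.86 with 0.5 and 0.95 with 10 in ES against control at 11 DIV, and 4.999 and 2.84 in control at 19 against 11 DIV. Without Cers2 the summed sphingolipid ratio was 0.625 for ES against control at 19 DIV, 4.49 at 11 DIV and 9.17 in control at 19 against 11 DIV. DESeq2 in place of edgeR called 503 genes and 1 member for ES and 832 genes and 5 members for day, and the cause was not tested. No paired analysis was possible because the labels give no replicate numbers and each group had 1 library. The additive fit sets ES against control within each day, and without 1 library it has no residual degrees of freedom. Depth limits the low members most, since 3 reads are 0.376 to 0.518 CPM.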
